A study of Homo sapiens with 6 samples.

Results

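The histone genes of the HIST clusters were described in OVCAR5 cells treated with SpiD7. The members are the genes whose symbol in the deposited table begins with HIST1H, HIST2H, HIST3H or HIST4H, which gave 73 of 29982 gene symbols. Of these, 58 were above 0 in at least 1 library and 36 had a mean of at least 1 FPKM over all libraries. FPKM is a read count per transcript, divided by transcript length and by the size of the library. The other 15 members were listed at 0 in every library. GENCODE v29 annotates 3 of the 73 as pseudogenes, HIST1H2APS1, at 0 throughout, and HIST2H2BA and HIST2H2BC, both among the 36. OVCAR5 is an established line of ovarian cancer cells, and SpiD7 is a spirocyclic dimer studied as an activator of the unfolded protein response. The 6 libraries comprised 2 of cells given the vehicle DMSO, 2 of cells given 10 μM SpiD7 for 2 h, and single libraries taken 6 h and 12 h into the same treatment. The labels give no duration for the vehicle and do not say whether replicates came from separate cultures, so that p-values measure only the spread between these libraries.

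Core histones H2A, H2B, H3 and H4 form the protein spool on which DNA is wound, and histone H1 binds the linker DNA between spools. Most genes of the HIST clusters are transcribed while DNA is copied. Their mRNAs end in a conserved stem-loop, bound by the stem-loop binding protein SLBP, in place of a poly(A) tail, and some of them also make a polyadenylated form. The library kit, by its usual protocol, selects RNA with a poly(A) tail, so that an FPKM value of a histone gene need not be the level of all its mRNA.

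The stem-loop is shown because it is the feature that sets these mRNAs apart. A search of the GENCODE v29 transcripts, on the sense strand, for the consensus of the histone 3′ stem-loop, of whose 16 bases 4 were left free, found it in 33 of the 73 members, 45.2%, and in 48 of 57133 gene names in all, 0.084%. A member without a match need not lack the stem-loop. Some such members have only a short annotated transcript, as the 381 bases of HIST1H2BM and the 411 bases of HIST1H3B, which can end before it. The letters that were found came in 6 forms among the members. They are printed 5′ to 3′ with the 6 bases of each arm of the stem in capitals and the 4 bases of the loop in lower case.
H2A, H2B and H3 form, 17 members, HIST1H2BL among them: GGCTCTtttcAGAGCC
H2B and H3 form, 5 members, HIST1H2BC among them: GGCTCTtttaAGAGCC
H4 form, 5 members, HIST1H4H among them: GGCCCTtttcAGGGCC
H4 form, 3 members, HIST1H4I among them: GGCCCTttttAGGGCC
H2A and H2B form, 2 members, HIST1H2AG among them: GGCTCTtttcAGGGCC
H3 form of HIST1H3E: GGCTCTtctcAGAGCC
An annotated transcript ran at least 100 bases past the stem-loop in 24 of the 33 members, 14 of which were among the 36 with a mean of at least 1 FPKM.

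Promoters were compared because genes of one class were read together below. RefSeq promoters on GRCh38.p14 were matched for 61 members, and the 250 bases before the start site were searched on both strands for 4 motifs. The motif CCAAT was present in every matched promoter of H1, H2A, H2B and H3 (6, 14, 18 and 10 promoters) and in 3 of 13 of H4, against 33.0% of 27305 promoters of all genes. The octamer ATTTGCAT stood in 11 of 14 H2A and 14 of 18 H2B promoters, against 1.66% of all promoters, and in 0 of 13 H4 promoters. GGTCC was found in 12 of 13 H4 promoters, against 40.4% of all promoters. The motif TATAAA was in 40 of the 61, 65.6%, against 11.1% of all. The promoters below belong to HIST1H2AM, to HIST1H2BL and HIST1H2BM, both among the members with the largest change at 12 h, and to HIST1H4H, the H4 gene of highest mean level. Capitals mark these motifs on either strand.
HIST1H2AM, chr6:27893186-27893435, minus strand: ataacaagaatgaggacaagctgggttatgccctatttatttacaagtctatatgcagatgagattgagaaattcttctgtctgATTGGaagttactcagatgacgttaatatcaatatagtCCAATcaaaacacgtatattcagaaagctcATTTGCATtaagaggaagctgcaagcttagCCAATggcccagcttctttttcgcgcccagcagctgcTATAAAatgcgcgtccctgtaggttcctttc
HIST1H2BL, chr6:27807930-27808179, minus strand: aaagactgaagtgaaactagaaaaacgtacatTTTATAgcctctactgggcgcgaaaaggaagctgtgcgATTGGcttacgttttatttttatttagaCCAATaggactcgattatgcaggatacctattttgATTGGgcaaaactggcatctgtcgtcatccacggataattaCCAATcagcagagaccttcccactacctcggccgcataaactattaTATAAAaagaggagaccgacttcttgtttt
HIST1H2BM, chr6:27814772-27815021, plus strand: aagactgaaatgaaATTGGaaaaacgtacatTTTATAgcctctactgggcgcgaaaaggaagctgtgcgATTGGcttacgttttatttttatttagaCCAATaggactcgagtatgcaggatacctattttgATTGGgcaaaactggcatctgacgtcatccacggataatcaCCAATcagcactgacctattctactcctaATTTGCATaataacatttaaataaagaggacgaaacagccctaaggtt
HIST1H4H, chr6:26285535-26285784, minus strand: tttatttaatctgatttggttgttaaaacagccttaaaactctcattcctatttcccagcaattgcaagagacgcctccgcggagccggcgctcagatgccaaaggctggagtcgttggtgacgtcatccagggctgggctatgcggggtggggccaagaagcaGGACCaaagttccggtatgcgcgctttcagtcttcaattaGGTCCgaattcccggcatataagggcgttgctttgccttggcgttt
The CCAAT letters appear in the H2A and H2B windows and not in that of HIST1H4H, whose window holds GGTCC on both strands. A match describes these letters only.

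The epithelial markers EPCAM, KRT7, KRT8, KRT18, KRT19 and CDH1 summed to between 3151 and 4721 FPKM, while the ovarian and Müllerian markers PAX8, WT1 and MUC16 summed to between 1.96 and 2.58 FPKM. Markers of leukocytes summed to between 22.7 and 37.3 FPKM, nearly all from CD68, with CD3E at 0 in every library. Markers of endothelium summed to between 0.441 and 11.5 FPKM and those of fibroblasts to between 1.06 and 3.11 FPKM. The replicate 2 values of DMSO and of 2 h SpiD7 were recovered from group means, as described with the processing. The recovered DMSO library was higher than the first in 23 of the 36 members, with a median log2 difference of 0.62, while the median over all 13287 genes tested was -0.06. MIR6723 took 25.0% and 21.8% of all FPKM in the recovered DMSO and 2 h libraries and from 5.04% to 9.19% in the other 4, and the part of these differences in the results was not tested.

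Summed over all 73 members, the histone genes were higher in every SpiD7 library than in either DMSO library. The sums were 286 and 386 FPKM in the DMSO libraries, 410 and 545 FPKM at 2 h, then 514 FPKM at 6 h and 517 FPKM at 12 h. The groups did not overlap, although the gap between the DMSO libraries was larger than that between the higher DMSO library and the lower 2 h library. In bulk RNA, a larger share of cells that express these genes and more RNA per cell cannot be told apart. Set against the DMSO mean, the sums differed by 0.51 (2 h), 0.63 (6 h) and 0.64 (12 h) on the log2 scale. HIST1H2BK alone made up 30.0% of the mean sum. Without this gene the groups would overlap, with the first 2 h sum below that of the recovered DMSO library. In the plot of members by library, every row is 1 of the 36 members, and low genes such as HIST1H2BL and HIST1H2BE are darker in both DMSO columns than in the SpiD7 columns. Both had a DMSO mean under 1 FPKM and are among the 36 only through SpiD7, so that they had to differ.

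**Figure D1:**
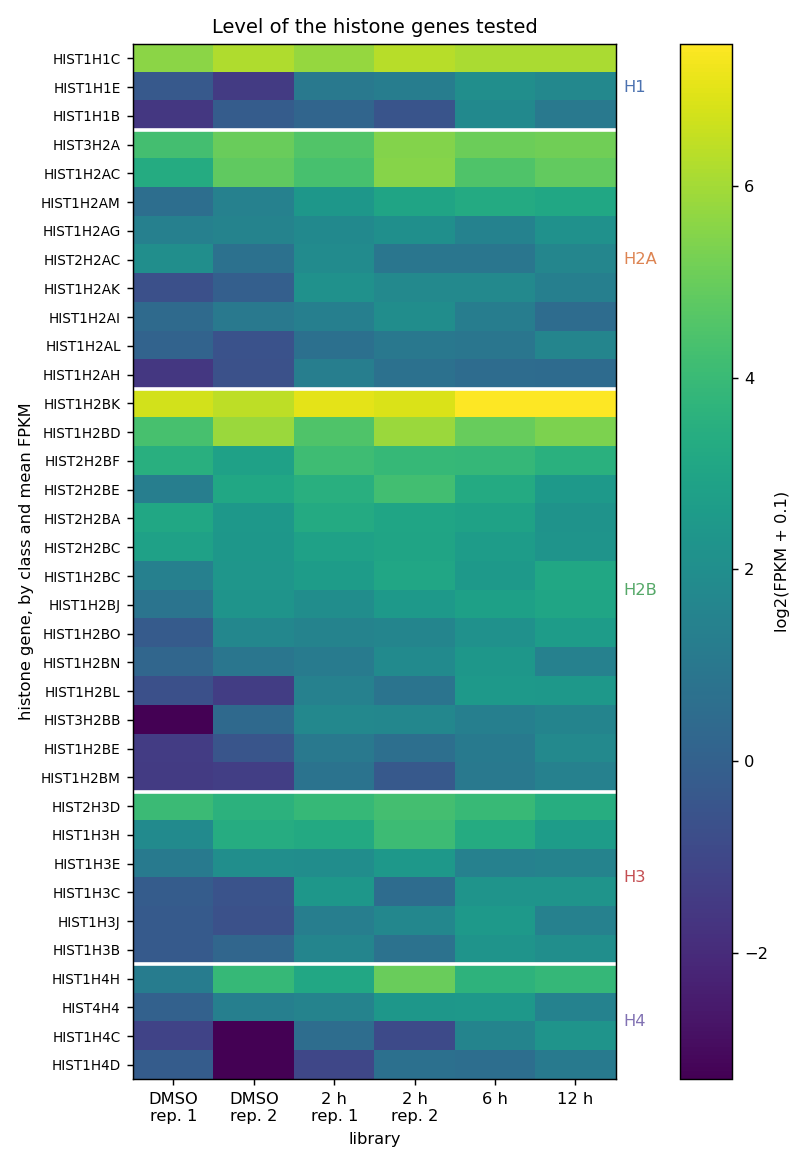
Levels of the 36 histone genes with a mean of at least 1 FPKM, as log2(FPKM + 0.1) (colour), in each of the 6 libraries (columns), grouped by class and ordered by mean FPKM. HIST1H2BK and HIST1H1C are the brightest rows, and HIST3H2BB and HIST1H4C each have a DMSO library at 0. Of the 36, 14 had a DMSO mean under 1 FPKM and are shown only through their SpiD7 values.

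Members of low level made the larger relative change. The FPKM value of 1 read, read from whole steps in the low values, followed locus length, and it turned the 55 members with a locus under 1000 bases and a mean under 5 FPKM into read equivalents. Together they held 86.0 and 106 read equivalents in the DMSO libraries, 251 and 195 at 2 h, then 374 at 6 h and 304 at 12 h. All 4 SpiD7 libraries lay above both DMSO libraries, though their depth relative to the first DMSO library was 1.02, 0.769, 1.11 and 0.953, against 0.896 in the recovered DMSO library. Among the 21 of them with a mean of at least 1 FPKM, 14 of which had a DMSO mean under 1 FPKM and passed that level only through SpiD7, the median member held 3.0 and 2.97 read equivalents in the DMSO libraries and 10.1, 5.93, 13.1 and 10.1 in the SpiD7 libraries, so that a single member rests on few reads. The 15 members with a mean of at least 5 FPKM summed to 262 and 354 FPKM in DMSO, 346 and 483 at 2 h, then 433 at 6 h and 435 at 12 h, with 1 of the 2 h libraries below the recovered DMSO library.

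Differences for single genes are given as log2(FPKM + 0.1) against the mean of both DMSO libraries, a scale that understates changes of low genes. At 2 h, the 58 members above 0 in a library had a median difference of 0.88, and 26 of them, 44.8%, were more than 2-fold higher, against 3.43% of all 22199 genes above 0. Of the same members, 2 were more than 2-fold lower, against 1.49% of all genes. At 6 h, 35 were more than 2-fold higher, against 9.05%, and 0 were lower, against 4.23%. At 12 h, 32 were higher, against 10.8%, and 2 were lower, against 4.53%. Of the 58, 6 were at 0 in both DMSO libraries and so could only be higher, on at most 4.93 read equivalents in a library. They make up 3 of the 26, 4 of the 35 and 3 of the 32 higher members. The 4 SpiD7 libraries all lay above both DMSO libraries in 21 of the 58 members, 36.2%, against 8.11% of all genes.

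The 36 members with a mean of at least 1 FPKM over the 6 libraries give the same direction, but 14 of them were under 1 FPKM on average in DMSO and passed this filter through the SpiD7 libraries alone, so that they had to differ. With that reservation, 18 of 36 were more than 2-fold higher at 2 h (2.32% of all 13287 genes), 21 at 6 h (5.66%) and 19 at 12 h (6.48%), and 0 were more than 2-fold lower at any of these times (0.662%, 3.1% and 3.76%). Their median difference at 12 h was 1.27, but 1.51 against the first DMSO library alone and 0.84 against the recovered one. When the filter was set on the DMSO libraries alone, a choice made after seeing the data, 22 members passed. Of these 22, 5 were more than 2-fold higher at 2 h (1.13% of all genes), 7 at 6 h (4.02%) and 5 at 12 h (4.6%), with 0 lower (0.837%, 3.58% and 4.23%), and the median difference was 0.75 at 2 h, then 0.58 at 6 h and 0.44 at 12 h. With the DMSO libraries taken singly, the 12 h median of the 22 was 0.86 for the first and 0.08 for the recovered one. All 22 were above the DMSO mean at 2 h, then 19 at 6 h and 17 at 12 h. Of the 13287 genes with a mean of at least 1 FPKM over the 6 libraries, a different filter, 6387, 7072 and 6009 were above it at these times.

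No single member passed a test. At 2 h, limma called 0 of the 36 members at an adjusted p under 0.05 (0% of all genes higher, 0.0226% lower), and 9 had an unadjusted p under 0.05, all higher, against 2.52% of all genes higher and 0.324% lower. Of the 9, 8 had a DMSO mean under 1 FPKM and had passed the filter through SpiD7, so that their number is not read against that share. With the replicate number as a block, 23 members had an unadjusted p under 0.05, all higher, beside 9.69% of all genes higher and 4.41% lower, and limma again called 0. The 23 also hold members that had passed the filter through SpiD7, HIST1H2BL and HIST1H3J among them, so that this number is not read against those shares either. The lowest unadjusted p without the block was 0.00251 for HIST1H3J, an H3 gene, with a limma adjusted p of 1.0. Over hours of SpiD7, with DMSO as 0 h and all 6 libraries, limma again called 0 members in either direction (0% of all genes), and 9 had an unadjusted p under 0.05 for an increase and 0 for a decrease, against 7.33% and 8.09% of all genes. Among these 9, 7 had entered through SpiD7 in the same way. The lowest of these belonged to HIST1H4C, with an unadjusted p of 0.0111 and a limma adjusted p of 0.204. At 6 h and 12 h there was 1 library each and no test.

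The linker histone class H1 had the smallest log2 difference of the class sums at 2 h and 6 h, 0.21 and 0.33. Its 6 members summed to 49.4 and 75.0 FPKM in the DMSO libraries, 58.3 and 85.3 at 2 h, then 76.4 at 6 h and 74.8 at 12 h, and the groups overlapped. Against the recovered DMSO library alone, the difference at 2 h was -0.09. HIST1H1C, which gave 94.0% of the mean sum, stood at 48.4 and 73.9 FPKM in DMSO, 54.6 and 80.3 at 2 h, then 68.2 at 6 h and 68.8 at 12 h. Neither 6 h nor 12 h exceeded the recovered DMSO library, and the log2 difference at 12 h was 0.20. By contrast, HIST1H1E was at 0.710 and 0.264 FPKM in DMSO, 1.98 and 2.30 at 2 h, then 3.94 at 6 h and 3.24 at 12 h. All its SpiD7 libraries lay above both DMSO libraries, with a log2 difference of 2.62 at 12 h. HIST1H1B was at 0.235 and 0.784 FPKM in DMSO, 1.04 and 0.608 at 2 h, then 3.38 at 6 h and 1.98 at 12 h. Its 2 h libraries overlapped DMSO and the later libraries did not. HIST1H1E and HIST1H1B both had a DMSO mean under 1 FPKM and passed the filter through SpiD7.

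Histone H2A genes encode the partner of H2B in the nucleosome. The 18 members summed to 40.1 and 74.4 FPKM in DMSO, 69.5 and 118 at 2 h, then 81.8 at 6 h and 92.1 at 12 h, and the first 2 h library lay below the recovered DMSO library. HIST3H2A, the member of highest mean level, was at 19.0 and 32.4 FPKM in DMSO, 23.7 and 44.1 at 2 h, then 33.2 at 6 h and 35.1 at 12 h, and its groups overlapped. HIST1H2AC was at 10.0 and 28.8 FPKM in DMSO, 20.4 and 45.4 at 2 h, then 22.7 at 6 h and 30.0 at 12 h. Its groups overlapped as well, with the first 2 h library and the 6 h library between the DMSO values. The member of middle level that stood clear of DMSO was HIST1H2AM, at 1.41 and 2.61 FPKM in DMSO, 5.11 and 7.87 at 2 h, then 9.57 at 6 h and 8.47 at 12 h. Its log2 difference was 1.67 at 2 h, then 2.26 at 6 h and 2.08 at 12 h, and no SpiD7 library overlapped DMSO. HIST1H2AK was at 0.517 and 0.858 FPKM in DMSO, 4.34 and 3.32 at 2 h, then 3.27 at 6 h and 2.46 at 12 h, and was therefore highest at the first time. HIST1H2AL and HIST1H2AH also lay above both DMSO libraries in all 4 SpiD7 libraries, with log2 differences at 12 h of 1.83 and 1.56. HIST1H2AK, HIST1H2AL and HIST1H2AH each had a DMSO mean under 1 FPKM and passed the filter through SpiD7. HIST1H2AI did not stay apart, at 1.25 and 1.94 FPKM in DMSO, 2.47 and 3.86 at 2 h, then 2.26 at 6 h and 1.33 at 12 h.

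Among the classes, H2B had the highest FPKM. Its 20 members summed to 165 and 188 FPKM in DMSO, 225 and 252 at 2 h, then 284 at 6 h and 288 at 12 h, and every SpiD7 library lay above both DMSO libraries. HIST1H2BK was at 107 and 84.8 FPKM in DMSO, 131 and 116 at 2 h, then 179 at 6 h and 177 at 12 h. No library of SpiD7 overlapped DMSO, the log2 difference was 0.37 at 2 h, then 0.91 at 6 h and 0.89 at 12 h, and the gene made up 56.8% of the class. Without HIST1H2BK, the first 2 h sum of the class would lie below that of the recovered DMSO library. The locus of HIST1H2BK overlaps that of HIST1H4I on the opposite strand, and the kit does not mark strand, so reads of the shared stretch cannot be told apart. HIST1H2BD, next in level, was at 20.2 and 58.2 FPKM in DMSO, 22.4 and 57.4 at 2 h, then 31.1 at 6 h and 41.0 at 12 h, so that the DMSO libraries spanned all the others. HIST1H2BL was at 0.530 and 0.294 FPKM in DMSO, 2.62 and 1.70 at 2 h, then 5.52 at 6 h and 5.34 at 12 h, with a log2 difference of 3.45 at 12 h. HIST1H2BM, at 0.272 and 0.301 FPKM in DMSO, reached 1.61 and 0.699 at 2 h, then 1.97 at 6 h and 2.60 at 12 h. HIST1H2BE was at 0.284 and 0.629 FPKM in DMSO, 1.97 and 1.46 at 2 h, then 2.06 at 6 h and 3.32 at 12 h. These 3 low H2B genes were separate from DMSO in every SpiD7 library, but each had a DMSO mean under 1 FPKM and passed the filter through SpiD7. For HIST1H2BM the recovered 2 h library held 1.97 read equivalents against 1.00 and 0.991 in DMSO, so that its separation there rests on few reads. HIST3H2BB was listed at 0 in the first DMSO library and at 1.18 FPKM in the other, against 3.16 and 3.08 at 2 h, then 2.41 at 6 h and 2.82 at 12 h, and its size of change depends on the value added before the logarithm. It too had a DMSO mean under 1 FPKM and passed the filter through SpiD7.

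Histone H3 genes were higher at 2 h and 6 h than at 12 h as a sum. The 14 members summed to 24.6 and 30.6 FPKM in DMSO, 39.9 and 48.5 at 2 h, then 46.6 at 6 h and 33.4 at 12 h, each SpiD7 sum above both DMSO sums. HIST2H3D, the member of highest mean level, was at 16.5 and 12.1 FPKM in DMSO, 15.0 and 18.8 at 2 h, then 15.6 at 6 h and 10.5 at 12 h, and its groups overlapped, with 12 h the lowest library. HIST1H3B was at 0.743 and 1.10 FPKM in DMSO, 2.93 and 1.59 at 2 h, then 4.70 at 6 h and 3.93 at 12 h. HIST1H3C was at 0.778 and 0.574 FPKM in DMSO, 5.12 and 1.33 at 2 h, then 4.69 at 6 h and 4.67 at 12 h, with 2 h libraries more than 2-fold apart. HIST1H3J was at 0.728 and 0.537 FPKM in DMSO, 2.39 and 3.12 at 2 h, then 5.70 at 6 h and 2.57 at 12 h. All 3 lay above both DMSO libraries throughout. HIST1H3E, with a log2 difference of -0.07 at 12 h, was at 2.05 and 3.98 FPKM in DMSO, 3.80 and 5.27 at 2 h, then 2.55 at 6 h and 2.72 at 12 h.

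The class sum of H4 had the largest log2 difference of the 5 classes at each time and also the widest gap between the DMSO libraries. Its 15 members summed to 6.63 and 18.6 FPKM in DMSO, 16.5 and 41.7 at 2 h, then 25.7 at 6 h and 28.8 at 12 h, with the first 2 h library below the recovered DMSO library. The sum at 12 h differed by 2.12 on the log2 scale from the first DMSO library and by 0.63 from the recovered one. HIST1H4H, the leading member, was at 2.25 and 14.9 FPKM in DMSO, 8.94 and 32.6 at 2 h, then 12.6 at 6 h and 14.4 at 12 h, and 6 h and 12 h lay between the DMSO libraries. At 12 h its log2 difference was 2.62 from the first DMSO library and -0.05 from the recovered one. HIST1H4C was at 0.346 FPKM in the first DMSO library and listed at 0 in the other, 1.37 and 0.443 at 2 h, then 2.83 at 6 h and 4.79 at 12 h. In read equivalents these are 0.997 and 0 in DMSO and 4.04, 0.981, 9.08 and 13.1 after SpiD7, so that the log2 difference of 4.53 at 12 h rests on a single DMSO read. HIST1H4D, also listed at 0 in the recovered DMSO library and at 0.779 FPKM in the first, was at 0.387 and 1.49 at 2 h, then 1.41 at 6 h and 2.07 at 12 h. Its first 2 h library lay between the DMSO libraries. HIST1H4C and HIST1H4D both had a DMSO mean under 1 FPKM and passed the filter through SpiD7. HIST4H4, alone in its cluster on chromosome 12, was at 0.939 and 2.42 FPKM in DMSO, 2.79 and 5.21 at 2 h, then 5.39 at 6 h and 2.66 at 12 h, and cleared both DMSO libraries each time. Its first 2 h and 12 h libraries held 9.10 and 8.09 read equivalents against 6.92 in the recovered DMSO library, so that the separation there rests on few reads.

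**Figure D2:**
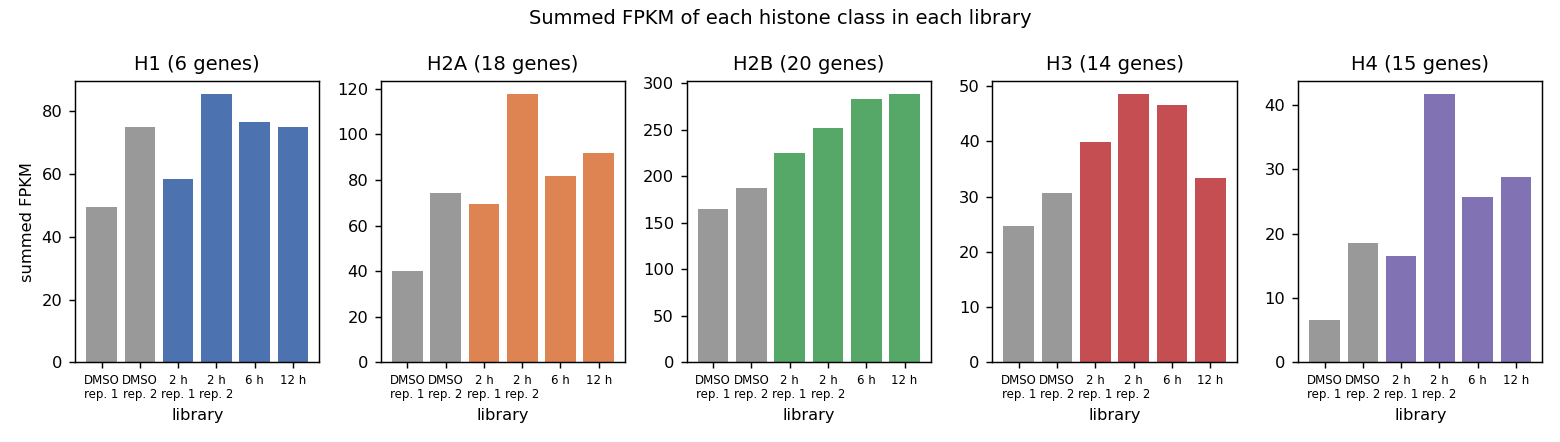
Summed FPKM (y axis, from 0, own scale per panel) of the H1, H2A, H2B, H3 and H4 genes in each of the 6 libraries, with DMSO in grey and SpiD7 in colour. The SpiD7 bars all exceed both DMSO bars for H2B and H3, and the bars overlap between groups for H1, H2A and H4. For H2B this depends on HIST1H2BK, without which the first 2 h sum would lie below that of the recovered DMSO library.

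The sums of HIST1 on chromosome 6 and HIST2 on chromosome 1 were both higher than DMSO at 2 h, and that of HIST2 was back among the DMSO values at 12 h. The 56 HIST1 members summed to 216 and 310 FPKM in DMSO, 316 and 421 at 2 h, then 417 at 6 h and 436 at 12 h. Without HIST1H2BK, the first 2 h sum of HIST1 would lie below that of the recovered DMSO library. The 13 HIST2 members summed to 49.6 and 39.9 FPKM in DMSO, 64.0 and 71.5 at 2 h, then 56.2 at 6 h and 40.4 at 12 h, so that the 12 h library lay between the DMSO libraries. As sums, HIST1 differed from DMSO by 0.50, 0.69 and 0.75 on the log2 scale at the 3 times and HIST2 by 0.60, 0.34 and -0.14, the larger value at 2 h being that of HIST2. Medians over members gave another order at 2 h. With a mean of at least 1 FPKM in DMSO, the 14 HIST1 members had median log2 differences of 0.83, 0.70 and 0.83 and the 6 HIST2 members 0.34, 0.14 and -0.05, or 0.54, 0.43 and 0.30 for the 4 that are not pseudogenes. Against the recovered DMSO library alone, the HIST1 median at 12 h was 0.28. With a mean of at least 1 FPKM over all libraries, 27 HIST1 members had medians of 1.08, 1.60 and 1.74, but 13 of them and 0 of HIST2 had passed through SpiD7. The 5 members lower at 12 h than the DMSO mean were HIST2H2BA, HIST2H3D, HIST2H2BC, HIST1H2AI and HIST1H3E, with log2 differences of -0.55, -0.42, -0.36, -0.22 and -0.07. HIST2H2BA was at 8.61 and 5.25 FPKM in DMSO, 9.55 and 8.04 at 2 h, then 7.39 at 6 h and 4.56 at 12 h. HIST2H2BC was at 7.16 and 5.17 FPKM in DMSO, 7.22 and 7.85 at 2 h, then 6.14 at 6 h and 4.73 at 12 h. Both were lowest at 12 h. The near-identical copies HIST2H2AA3 and HIST2H2AA4, HIST2H3A and HIST2H3C, and HIST2H4A and HIST2H4B were at 0 in every library, where 0 can be a failed estimate. The difference between clusters was not tested.

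Against each DMSO library on its own at 12 h, 15 of the 36 members were more than 2-fold higher, against 3.88% of all genes, and 0 were more than 2-fold lower, against 0.993%. They were 14 members of HIST1 and HIST3H2BB. All but HIST1H2AM were under 1 FPKM on average in DMSO and so belong to the members that the filter admitted through SpiD7. They held from 0 to 9.93 read equivalents in the DMSO libraries and from 5.05 to 34.3 at 12 h.

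**Figure D3:**
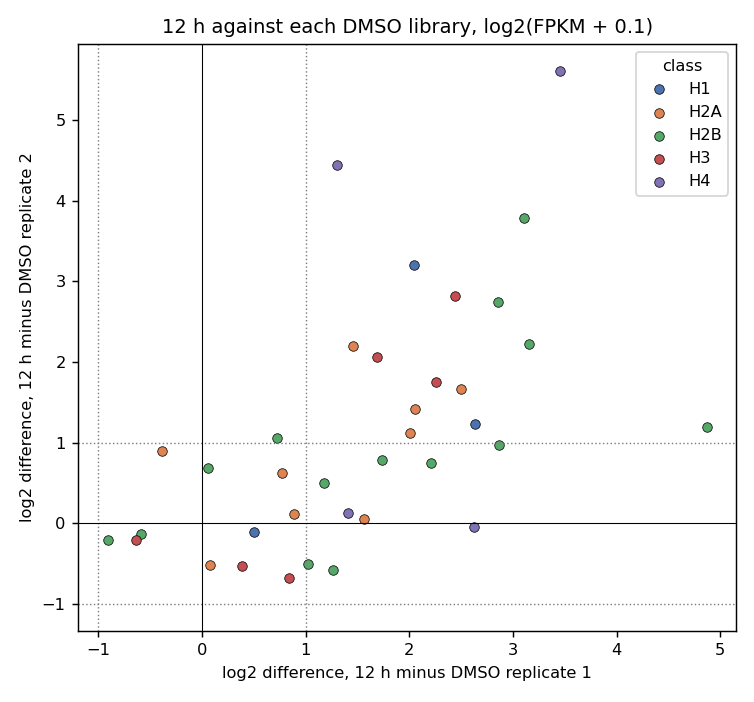
Each of the 36 tested histone genes as 1 point, coloured by class, by its log2 difference at 12 h from DMSO replicate 1 (x axis) and from the recovered DMSO replicate 2 (y axis), with dotted lines at 2-fold. The 15 genes to the upper right of both lines are those more than 2-fold higher than each DMSO library, and 0 genes lie past 2-fold lower on both axes.

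The time of the highest mean level differed among members, with 13 of the 36 highest at 2 h, then 10 at 6 h and 13 at 12 h. From 2 h to 6 h, 19 were higher and 5 more than 2-fold higher. From 6 h to 12 h, 17 were higher, with 0 more than 2-fold higher and 1 more than 2-fold lower. The median log2 step of the 36 was 0.04 from 2 h to 6 h and -0.01 from 6 h to 12 h, beside 0.02 and -0.06 over all 13287 genes. The share of all genes past 2-fold was not counted for these steps, so that the counts are not read as a result about the members. HIST1H2AK was an example of an early level and HIST1H2BE of a late one.

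H2A and H2B genes of the clusters often lie in diverging pairs that share the DNA between their start sites. The files' loci held 11 such pairs, of which 7 had both genes at a mean of at least 1 FPKM, with gaps of 239 to 322 bases. The pairs and their partners were listed after values were seen. In 5 of these 7 the H2B gene had the larger log2 difference at 12 h. HIST1H2BL, HIST3H2BB and HIST1H2AK, all in these pairs, each had a DMSO mean under 1 FPKM and passed the filter through SpiD7. The count is therefore not read as a result about the pairs. HIST1H2AI and HIST1H2BL, with a gap of 267 bases, had log2 differences at 12 h of -0.22 and 3.45. HIST1H2AM and HIST1H2BO, whose shared gap lies within the promoter window printed for HIST1H2AM, were closer, at 2.08 and 1.92. HIST3H2A and HIST3H2BB stood at 0.50 and 3.03, the first from a gene of high level and the second from a gene at 0 in a DMSO library.

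The 6 HIST genes known to make polyadenylated mRNA as well had median log2 differences of 0.60 at 2 h, then 0.53 at 6 h and 0.58 at 12 h, with 1 of 6 more than 2-fold higher at each time. With only the first DMSO library as reference the 12 h median was 1.14, and with only the recovered one it was -0.02, a change of direction. HIST1H2BC had the largest difference of the 6 at 12 h, 1.26, and HIST1H1C the smallest, 0.20. HIST1H2BC was at 2.53 and 4.97 FPKM in DMSO, 6.11 and 8.29 at 2 h, then 5.59 at 6 h and 8.64 at 12 h. Every SpiD7 value lay above both DMSO values.

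Genes around the histone pathway were read from lists that were drawn up with earlier results of these data known, and SLBP and CHAF1A stand in more than 1 list. limma called 0 genes of any of these lists at 2 h or over hours. Counts past 2-fold in them stand beside 2.32%, 5.66% and 6.48% of all genes higher and 0.662%, 3.1% and 3.76% lower at the 3 times. Histone variant genes outside the clusters, most of which make polyadenylated mRNA and are used through the cell cycle, had a median log2 difference of -0.04 at 2 h, then 0.13 at 6 h and -0.22 at 12 h over 11 genes. The last was -0.53 when set on the first DMSO library and 0.03 when set on the recovered one. Of these, 0 were more than 2-fold higher at any time and 2 were lower at 12 h. H1F0, a replacement linker histone, was at 210 and 125 FPKM in DMSO, 146 and 94.3 at 2 h, then 118 at 6 h and 50.9 at 12 h, the 12 h library being the lowest. H3F3B, which encodes histone H3.3, was at 268 and 216 FPKM in DMSO and 243 at 12 h, within the DMSO values.

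Genes of S phase and replication, the phase in which most HIST genes are transcribed, had a median log2 difference of -0.13 at 2 h, then 0.20 at 6 h and -0.42 at 12 h over 35 genes. The direction at 12 h turned with the reference, from -0.87 for the first DMSO library to 0.10 for the recovered one. None was more than 2-fold higher at 2 h, 2 were at 6 h and 1 at 12 h, with 1 lower at 12 h, which is close to or below the share of all genes. CCNE1, the cyclin E gene, was at 9.31 and 7.94 FPKM in DMSO, 11.9 and 10.2 at 2 h, then 22.9 at 6 h and 22.0 at 12 h, above DMSO in all 4 SpiD7 libraries. GINS1, of the replicative helicase complex, was at 23.1 and 11.1 FPKM in DMSO, 21.9 and 9.30 at 2 h, then 17.3 at 6 h and 7.91 at 12 h. SLBP itself stood at 71.5 and 46.9 FPKM in DMSO, 63.3 and 41.8 at 2 h, then 67.6 at 6 h and 72.9 at 12 h, and its groups overlapped.

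Factors of histone gene transcription and mRNA 3′ processing had median log2 differences of 0.02 (2 h), 0.22 (6 h) and 0.01 (12 h) over 23 genes, the last being -0.24 and 0.23 against the DMSO libraries taken singly. ZNF473, a zinc finger protein that takes part in the processing of histone pre-mRNA, was at 7.39 and 4.31 FPKM in DMSO, 14.2 and 9.87 at 2 h, then 23.3 at 6 h and 22.3 at 12 h. All SpiD7 libraries lay above DMSO, with a log2 difference of 1.96 at 12 h. CPSF3, the nuclease that cuts histone pre-mRNA, was lowest at 12 h, at 31.1 FPKM against 53.1 and 38.1 in DMSO. The 23 histone chaperones had medians of -0.01, 0.06 and -0.37, with 0 past 2-fold at any time and the last at -0.49 and 0.02 against the single DMSO libraries, and ran from UBN2 at 0.88 to HJURP at -0.90 at 12 h.

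Several RNAs that lack a poly(A) tail were higher than in DMSO. Over 19 such RNAs the median log2 difference was 0.30 at 2 h, then 1.68 at 6 h and 1.71 at 12 h, and 5, 11 and 11 of them were more than 2-fold higher and 1, 1 and 0 lower at these times. Of the 19, 6 had a DMSO mean under 1 FPKM and passed through SpiD7. For the 13 others the medians were 0.29, 1.35 and 1.11, with 2, 7 and 7 higher. Some of these RNAs were above 0 in a single library, as RNU4-1 at 6 h and RNU12 in the recovered 2 h library. RNU2-1 and RNU4-2, both among the 13, count as higher at 12 h only through the recovered DMSO library. RNU2-1 was at 26.5 and 3.15 FPKM in DMSO and 20.0 at 12 h, and RNU4-2 at 16.4 and 0 in DMSO and 19.6 at 12 h. No read equivalents were derived for these RNAs. At 12 h the 19 had a median of 0.69 relative to the first DMSO library and of 1.61 relative to the recovered library. RN7SK, a small nuclear RNA that holds the elongation factor P-TEFb, was at 34.0 and 27.4 FPKM in DMSO, 55.9 and 60.4 at 2 h, then 165 at 6 h and 381 at 12 h. RMRP, an RNA of an RNase complex, was at 8.11 and 7.95 FPKM in DMSO, 34.4 and 16.4 at 2 h, then 73.0 at 6 h and 63.2 at 12 h. RN7SK and RMRP were chosen after their values were seen. In each of them no SpiD7 library overlapped DMSO. RNU11 was listed at 0 in both DMSO and both 2 h libraries and at 22.0 and 27.0 FPKM at 6 h and 12 h. SCARNA9 had the lowest difference at 12 h, -0.65. The histone members with a DMSO mean of at least 1 FPKM had medians of 0.75, 0.58 and 0.44, the largest at 2 h. The medians of the RNAs without a tail were larger at 6 h and 12 h. So were those of the 36 members, 1.03, 1.21 and 1.27, of which 14 passed through SpiD7. The 58 members above 0 in a library had medians of 0.88, 1.34 and 1.33. The time of the larger differences in the histone genes thus depended on the members read. The part of such RNAs in the result was not tested. The plot of genes by list shows 4 of these lists.

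**Figure D4:**
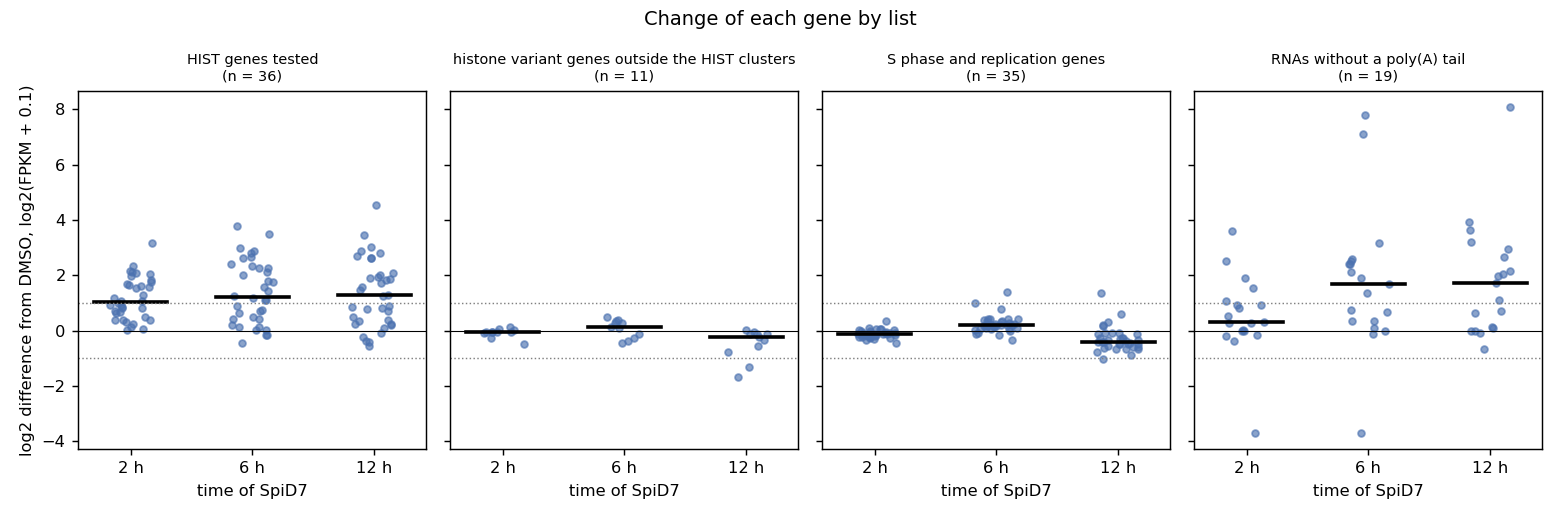
Log2 difference from DMSO of each gene (points, y axis, log2(FPKM + 0.1) scale) at 2 h, 6 h and 12 h of SpiD7 (x axis) in 4 lists, with the list median as a black bar and dotted lines at 2-fold. HIST genes and RNAs without a poly(A) tail lie mostly above 0, at 12 h medians of 1.27 and 1.71, but 14 of the 36 and 6 of the 19 passed the filter through SpiD7, and without them the medians are 0.44 and 1.11. Histone variant and S phase genes have 12 h medians of -0.22 and -0.42.

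Near-identical histone genes share reads, which the authors' estimate could split between them, so that the value of a single member is uncertain. HIST1H2AD and HIST1H3D share a locus and carry the same value in every library. Of the members with values, 22 had a mean under 1 FPKM, and their sum was 3.82 and 7.10 FPKM in DMSO, 10.1 and 11.0 at 2 h, then 12.4 at 6 h and 15.2 at 12 h, again with no overlap between the groups.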

How the data were processed

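RNA of 6 OVCAR5 libraries was measured. Per the methods and the labels, the authors ran Trim Galore on single reads, then TopHat2 2.0.8 for alignment, and Cufflinks 2.1.1 and Cuffdiff 2.1.1 for expression. They deposited FPKM in 4 separately scaled comparisons on loci of hg38. The methods text names a mouse build. The deposited log2 fold changes, p-values and q-values of these comparisons were not used. Columns without a sample or group numbered 0.

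The columns named for replicate 2 held group means: none of the 18195 and 18722 rows above 0 in the first library was at 0 there (0 rows). Replicate 2 was recovered by subtracting the first library at its weight (0.526 for DMSO, 0.509 for 2 h), which assumes equal weights. The 6 h and 12 h columns were divided by 0.972 and 0.994 to reach the scale of the first comparison. FPKM was summed by symbol, and genes with a mean of at least 1 were fitted by limma 3.58.1 in R 4.3.3 on log2(FPKM + 0.1), with Benjamini-Hochberg adjustment over all 13287 genes, and tested on simulated data. Other steps used Python 3.11.15, pandas 2.3.3, numpy 2.4.6 and matplotlib 3.10.9. The value of 1 read was fitted on 9 members whose values were whole multiples, to within 0.968% of the fit, which gives relative depths only. No counts were used, so counting errors are not given. File starts were moved by 1 to count from 1.

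Members and lists were chosen with earlier results of these data known. Members named were the 6 of highest mean, the 5 largest rises and falls at 12 h, the highest of each class and cluster, all past 2-fold against each DMSO library, and the ends of each list; other names were chosen after their values were seen. Alternatives covered pseudocounts, filters, scalings, repeated symbols, the mean columns, an intensity trend, a replicate block and each left-out replicate.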

Additional observations from a re-analysis of the deposited data

How the results depend on the processing

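Counts of members more than 2-fold higher than DMSO moved with the filter and the pseudocount. With a pseudocount of 1, 10 members were higher at 2 h. Without a filter, 35 were higher at 6 h and 32 at 12 h, and 2 were lower at 2 h and 2 at 12 h. With a mean of at least 5 FPKM, 4 were higher at each of 2 h, 6 h and 12 h, of 15 members tested, the median at 12 h was 0.37 and the median slope was 0.018 per h. With the filter on the DMSO libraries, chosen after seeing the data, 5, 7 and 5 were higher and the median at 12 h was 0.44. Leaving out 1 replicate at a time, the median log2 difference ran from 0.66 to 1.42 at 2 h, from 1.00 to 2.00 at 6 h and from 0.84 to 1.51 at 12 h, and members lower at 6 h numbered 0 to 1, the 1 without the recovered DMSO library. The values of 0.66 and 0.84 came without the first DMSO library and that of 2.00 without the recovered one. Scalings, the highest row of a symbol and the mean columns moved none of these by as much. limma called 0 members under every alternative at 2 h and over hours. With the replicate number as a block it called 0 at 2 h as well, and 23 members, all higher, had an unadjusted p under 0.05 against 9 without it, with 9.69% of all genes higher under the block; the labels do not say that numbers pair the libraries, which correlated at 0.369 over genes. Of 1299 recomputed differences of single members, 47 moved by more than the spread of the DMSO libraries and 37 changed sign, 32 of them from a value under 0.5. Many of the 1299 could not move by that measure, so that the 47 do not show how stable the values are. Leaving out a DMSO library shifts a difference by less than that spread. Filters and the choice of row left member values as they were, as did leaving out a 2 h library at 6 h and 12 h. The cause of the shifts that were seen was not tested. Each member of low level rests on few reads, which limits single values, and the 6 h and 12 h libraries have no replicate.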
